A study of Mus musculus with 24 samples.

Results

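The genes described here encode the machinery that builds melanosomes and moves them to the cell periphery. They were chosen by name, as the subunits of BLOC-1, BLOC-2, BLOC-3, AP-3 and HOPS, the Rab GTPases of the melanosome with the enzyme subunit that lipidates them, and the proteins that transport, dock or size melanosomes. All 35 listed genes have a row among the 12010 genes of the table. BLOC-1 accounts for 8 of them, BLOC-2 for 3, BLOC-3 for 2, AP-3 for 5, HOPS for 6, the Rab group for 5 and the transport group for 6.

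Messenger RNA was sequenced from the 3′ end in B16-F10-luc2 cells, a mouse melanoma line with a luciferase reporter, in 8 cell lines with 3 libraries each. The lines were the parental cells, MITF KO, TFE3 KO, TFEB KO, MITF/TFE3 DKO, MITF/TFEB DKO, TFEB/TFE3 DKO and the triple knockout of MITF, TFE3 and TFEB (TKO). MITF, TFE3 and TFEB are transcription factors of the MiT/TFE family. The MITF KO cells were an existing B16-F10 line with a frameshift. TFE3 and TFEB were disrupted by CRISPR-Cas9 in parental or in MITF KO cells, followed by clonal isolation. Every KO line is thus 1 clone, and the knockout and the clone cannot be told apart. All lines without MITF go back to the same MITF KO cells, so they are not independent of each other. The paper does not state whether TKO was made from a double knockout, so MITF/TFEB DKO and TKO may share more than that origin. Nothing states that the 3 libraries of a line came from separate cultures, so the p-values measure the spread between these libraries, which may be technical.

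The libraries held 18300902 to 26667877 reads on genes. The 7 markers of the melanocyte lineage (Mlana, Pmel, Tyr, Tyrp1, Dct, Sox10 and Mitf) all had rows, and their summed level was 26130 to 26950 CPM in the parental libraries, 38410 to 40320 in MITF KO, 17180 to 19640 in MITF/TFEB DKO and 15830 to 16860 in TKO. Dct made up most of this sum, with line means of 17750 CPM in parental cells and 29020 in MITF KO, and the other markers did not all follow it. In MITF KO the mean of Mlana was 488 CPM against 799 in parental cells, and in MITF/TFEB DKO Sox10 was at 1053 against 731. Of 5 fibroblast markers 2 had rows, with a sum of 9.73 to 12.4 CPM in parental cells. This sum was 32.7 to 41.5 CPM in MITF KO and 34.4 to 45.3 in MITF/TFEB DKO. Of 4 keratinocyte and epithelial markers 2 had rows, with a sum of 0.899 to 1.41 CPM in parental cells and 16.4 to 19.7 in TKO. These 2 markers went opposite ways, with Krt14 means of 0 CPM in parental cells and 17.4 in TKO, and Cdh1 means of 1.19 and 0.532. Of 4 leukocyte markers 1 had a row and stayed at or under 1.74 CPM, and of 3 endothelial markers Pecam1 had a row, with means of 8.11 CPM in parental cells, 27.5 in TFEB/TFE3 DKO, 14.5 in TFEB KO and 2.17 in TFE3 KO, and of at most 1.65 in the lines without MITF. The part of these marker levels in the results was not tested, and in bulk RNA fewer cells of a kind and less RNA per cell cannot be told apart. Reads on Mitf were present in every line, at 763 to 797 CPM in parental cells, 1358 to 1470 in MITF KO, 1101 to 1268 in MITF/TFE3 DKO, 544 to 603 in MITF/TFEB DKO and 326 to 350 in TKO, so its mRNA level does not check that knockout, which was made by a frameshift. In the MITF KO cells the paper saw a faint, faster band with its MITF antibody, and it proposes that some truncated MITF may remain. Lines called without MITF here are those with the frameshift. Tfe3 was at 35.4 to 38.4 CPM in parental cells and at 8.01 to 14.4 in the TFE3 KO, MITF/TFE3 DKO and TFEB/TFE3 DKO libraries, but at 17.6 to 21.8 in TKO. Tfeb was at 7.87 to 10.3 CPM in parental cells and at 2.06 to 5.27 in the 4 lines without TFEB.

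Melanosomes are lysosome-related organelles, and pigment cells build them by sorting cargo out of endosomes. AP-3, BLOC-1 and BLOC-2 act along this cargo route, BLOC-3 activates Rab32 and Rab38, and HOPS tethers membranes that fuse with late endosomes and lysosomes. Mature melanosomes are held on actin by Rab27a, melanophilin and myosin Va. Many of these genes were found as mouse coat colour mutants or as Hermansky-Pudlak, Griscelli or Chediak-Higashi syndrome genes.

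Rab27a, Sytl2 and Lyst were the members that fell furthest, and they fell in different sets of lines. Sytl2 was low in every line without MITF, Lyst in the lines that lacked MITF together with TFE3 or TFEB, and Rab27a in the lines that lacked MITF together with TFEB. Most subunits of the sorting and tethering complexes moved by less than 2-fold. Calls required a change of 2-fold or more together with p under 0.05 before adjustment in the limma fit. Fold changes are given as log2 differences of CPM + 1 ± SE, and adjusted p-values cover all 12010 genes.

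Against parental cells, no member was called higher and 1 lower in MITF KO, where 3.29% and 2.99% of all genes were. In MITF/TFE3 DKO 0 and 2 members were called, against 3.50% and 2.37% of all genes. In MITF/TFEB DKO 2 members were called higher and 4 lower, against 8.78% and 4.94%, and in TKO 1 higher and 4 lower, against 8.28% and 6.41%. All 7 comparisons use the same 3 parental libraries.

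With MITF present, limma called 0 of the 35 members in each of the KO lines. The backgrounds were 0.366% of all genes higher and 1.34% lower in TFE3 KO, 0.192% and 0.591% in TFEB KO, and 0.575% and 0.383% in TFEB/TFE3 DKO. At an unadjusted p under 0.05 whatever the fold, 6, 2 and 6 members differed in these 3 lines, where 26.7%, 16.4% and 22.5% of all genes did. The edgeR test on recovered reads called 1, 0 and 0 members. The member it called in TFE3 KO was Ap3s1, which had 0.863 to 2.47 CPM in parental libraries and 1.496 to 7.18 in TFE3 KO, with an edgeR adjusted p of 0.167.

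Members were also counted at an adjusted p under 0.05 whatever the fold, which includes the called members and was added after the data were seen. In TKO 10 members were higher and 18 lower, where 28.3% and 27.9% of all genes were, and the median log2 fold change was -0.32 over the members and 0.01 over all genes. In MITF/TFEB DKO 8 were higher and 14 lower, against 28.8% and 27.3%, with medians of -0.10 and 0.01. In MITF/TFE3 DKO 4 were higher and 10 lower, against 20.2% and 21.7%, and in MITF KO 6 were higher and 2 lower, against 20.1% and 17.8%. The members' median was 0.02 and -0.01 in these lines.

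With MITF present these counts were small. In TFE3 KO 3 members (Bloc1s3, Vps16 and Rabggta) were higher and 0 lower, against 4.50% and 7.78% of all genes. In TFEB KO 0 members passed in either direction, against 2.25% and 2.59%. In TFEB/TFE3 DKO Sytl2 was higher and Bloc1s2 lower, against 4.72% and 4.09%.

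**Figure D1:**
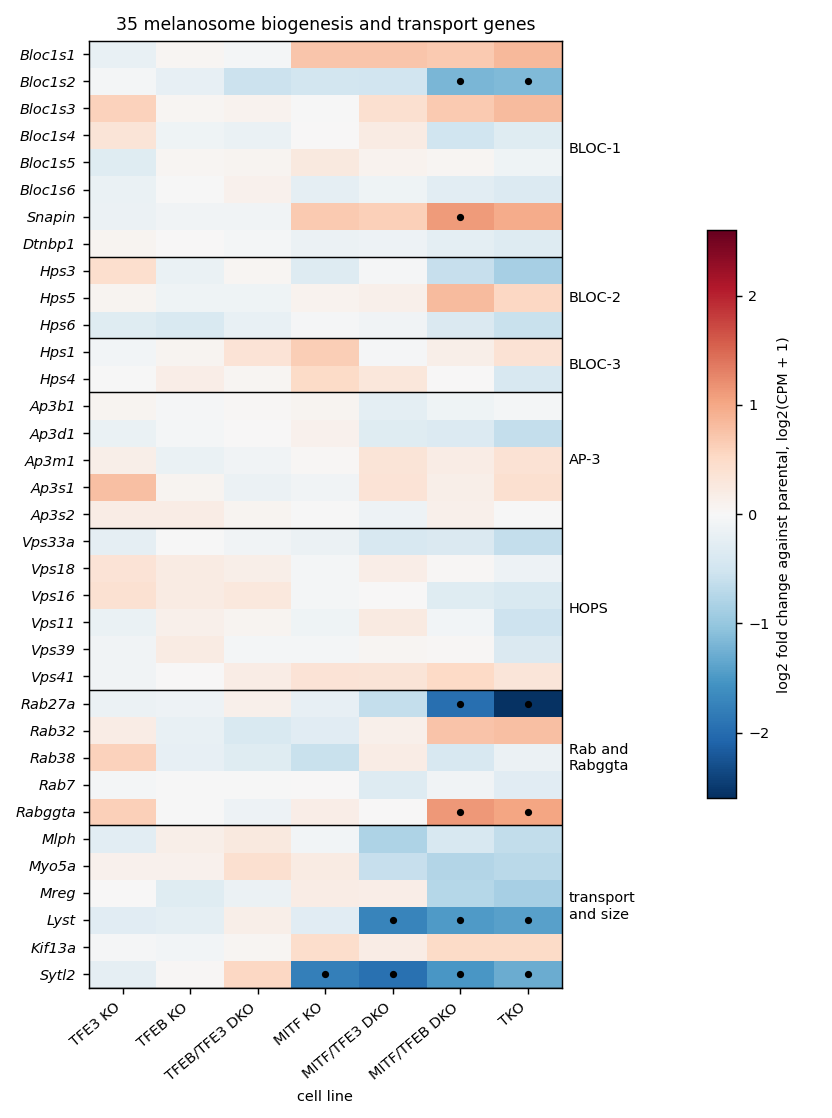
Log2 fold change of log2(CPM + 1) against parental cells for the 35 genes (rows, by complex) in the 7 KO lines (columns), with black dots on called values. The dots lie in the 4 columns of lines without MITF, and Rab27a in TKO has the deepest blue, at -2.56.

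Rab27a (ENSMUSG00000032202, chr9:72952124-73004911 on the plus strand, GRCm39) encodes the GTPase that recruits motor and docking proteins to the melanosome, and it is the gene of the ashen coat colour. Its level was 65.1, 61.2 and 64.5 CPM in the parental libraries, 58.1, 54.3 and 51.9 in MITF KO and 40.4, 35.4 and 48.5 in MITF/TFE3 DKO. It was 18.2, 14.2 and 15.01 CPM in MITF/TFEB DKO and 10.4, 10.6 and 8.90 in TKO. The 6 libraries of MITF/TFEB DKO and TKO lay below every other library, and those of TKO below those of MITF/TFEB DKO.

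With MITF present, Rab27a was at 55.3, 52.0 and 66.0 CPM in TFE3 KO, 73.6, 51.6 and 51.3 in TFEB KO and 77.8, 69.8 and 63.4 in TFEB/TFE3 DKO, ranges that each overlapped that of the parental cells. Against parental cells Rab27a fell by 1.95 ± 0.14 in MITF/TFEB DKO (adjusted p = 3.4e-11) and by 2.56 ± 0.14 in TKO (adjusted p = 1.9e-13) on the log2 scale. In MITF/TFE3 DKO it fell by 0.62 ± 0.14 (adjusted p = 0.00091), and in MITF KO the difference was -0.21 ± 0.14 (adjusted p = 0.23). The 100 nearest genes on chromosome 9 had a median change of -0.28 in MITF/TFEB DKO and -0.25 in TKO.

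The 300 bases before the annotated start of Rab27a are shown because it changed most of the 35 genes. They hold neither CACGTG nor CATGTG, the E-box letters searched for on both strands, so no base is in capitals. The sequence is chr9:72951824-72952123, plus strand, GRCm39.
Rab27a promoter: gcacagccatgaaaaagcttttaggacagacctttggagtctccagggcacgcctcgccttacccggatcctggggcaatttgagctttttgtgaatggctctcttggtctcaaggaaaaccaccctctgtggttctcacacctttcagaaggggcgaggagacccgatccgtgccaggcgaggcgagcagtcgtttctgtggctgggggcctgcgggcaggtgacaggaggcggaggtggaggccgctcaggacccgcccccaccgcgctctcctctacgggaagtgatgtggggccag

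Melanophilin and myosin Va complete the complex that holds Rab27a melanosomes on actin. Mlph (ENSMUSG00000026303, the leaden gene) was at 346, 329 and 303 CPM in parental libraries, 159, 224 and 180 in MITF/TFE3 DKO, 268, 236 and 227 in MITF/TFEB DKO and 218, 213 and 192 in TKO. All 9 libraries of these 3 lines lay below the 3 parental ones. Mlph fell by 0.81 ± 0.12 in MITF/TFE3 DKO (adjusted p = 2.0e-05), by 0.42 ± 0.12 in MITF/TFEB DKO (adjusted p = 0.0064) and by 0.65 ± 0.12 in TKO (adjusted p = 0.00012), and in MITF KO its difference was -0.07 ± 0.12 (adjusted p = 0.70).

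Myo5a (ENSMUSG00000034593, the dilute gene) was at 258, 247 and 244 CPM in parental libraries and 281, 315 and 271 in MITF KO. It was at 141, 161 and 196 CPM in MITF/TFE3 DKO, 172, 130 and 140 in MITF/TFEB DKO and 158, 158 and 142 in TKO. The double and triple knockouts without MITF lay below the parental and MITF KO libraries with no overlap. Myo5a fell by 0.60 ± 0.14 (adjusted p = 0.0014), 0.77 ± 0.14 (adjusted p = 6.3e-05) and 0.70 ± 0.14 (adjusted p = 0.00016) in these 3 lines against parental cells. An unnamed gene model, Gm33750, overlaps the last 500 bases of Myo5a on the other strand.

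Rab27a, Mlph and Myo5a therefore passed the adjusted threshold downward in both double knockouts without MITF and in TKO, and none of the 3 did so in MITF KO. Of all genes 21.7% did so in MITF/TFE3 DKO, 27.3% in MITF/TFEB DKO, 27.9% in TKO and 17.8% in MITF KO. Rab27a fell further in MITF/TFEB DKO than in MITF/TFE3 DKO (difference -1.33 ± 0.14, adjusted p = 3.3e-08), whereas Mlph was higher in MITF/TFEB DKO than in MITF/TFE3 DKO (0.39 ± 0.12, adjusted p = 0.013). For Myo5a the difference between these 2 lines was -0.17 ± 0.14 (adjusted p = 0.34).

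Sytl2 (ENSMUSG00000030616, chr7:89951453-90059927, plus strand) encodes Slp2-a, a Rab27 effector that docks vesicles at the plasma membrane. It was at 41.3, 38.5 and 39.5 CPM in parental libraries, 30.8, 29.9 and 42.0 in TFE3 KO, 50.1, 31.3 and 42.1 in TFEB KO and 64.2, 54.0 and 57.9 in TFEB/TFE3 DKO. It was at 9.09, 12.4 and 11.6 CPM in MITF KO, 9.22, 8.01 and 12.02 in MITF/TFE3 DKO, 14.04, 11.1 and 14.7 in MITF/TFEB DKO and 16.3, 16.7 and 14.02 in TKO. All 12 libraries without MITF, up to 16.7 CPM, lay below all 12 with MITF, from 29.9 CPM. Sytl2 fell by 1.77 ± 0.17 in MITF KO (adjusted p = 1.2e-08), 1.94 ± 0.17 in MITF/TFE3 DKO (adjusted p = 3.9e-09), 1.52 ± 0.17 in MITF/TFEB DKO (adjusted p = 5.9e-08) and 1.29 ± 0.17 in TKO (adjusted p = 6.3e-07). In TFEB/TFE3 DKO it was higher than in parental cells, by 0.55 ± 0.17 (adjusted p = 0.041).

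Against MITF KO the double knockouts differed in Sytl2 by amounts that did not pass. The difference was -0.17 ± 0.17 in MITF/TFE3 DKO (adjusted p = 0.45) and 0.25 ± 0.17 in MITF/TFEB DKO (adjusted p = 0.21). The nearest 100 genes had medians between -0.29 and 0.09 in the 4 lines without MITF.

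Lyst (ENSMUSG00000019726, chr13:13764902-13953388, plus strand) is the beige gene, and its protein limits the size of lysosomes and melanosomes. It had few reads, 55 to 471 per library. Its level was 15.2, 15.4 and 16.1 CPM in parental libraries, 11.5, 13.5 and 12.5 in MITF KO, 2.28, 5.04 and 5.44 in MITF/TFE3 DKO, 6.20, 4.03 and 4.74 in MITF/TFEB DKO and 6.85, 4.66 and 4.43 in TKO. In the KO lines with MITF, Lyst was at 13.7, 6.97 and 19.7 CPM in TFE3 KO, 14.3, 8.96 and 16.7 in TFEB KO and 18.8, 13.4 and 20.4 in TFEB/TFE3 DKO. The 9 libraries of the double and triple knockouts without MITF lay below all others, with 6.85 CPM as their highest value and 6.97 CPM as the lowest of the rest.

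Lyst fell by 1.72 ± 0.28 in MITF/TFE3 DKO (adjusted p = 4.5e-05), 1.48 ± 0.28 in MITF/TFEB DKO (adjusted p = 0.00012) and 1.41 ± 0.28 in TKO (adjusted p = 0.00020), and in MITF KO its difference was -0.29 ± 0.28 (adjusted p = 0.44). Against MITF KO it was lower by -1.42 ± 0.28 in MITF/TFE3 DKO (adjusted p = 0.00048) and -1.19 ± 0.28 in MITF/TFEB DKO (adjusted p = 0.0014). With a pseudocount of 5 these last values were -0.94 and -0.82, past the threshold no longer. The nearest 100 genes had medians from -0.03 to 0.11 in the 3 lines.

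Mreg (the dilute suppressor gene, whose protein acts in melanosome transport) was at 65.2, 63.2 and 55.0 CPM in parental libraries, 69.6, 72.5 and 63.9 in MITF/TFE3 DKO, 34.3, 37.1 and 36.5 in MITF/TFEB DKO and 35.3, 33.0 and 30.8 in TKO. The libraries of MITF/TFEB DKO and TKO lay below all others, whose lowest was 41.7 CPM in TFEB KO. Mreg fell by 0.75 ± 0.11 in MITF/TFEB DKO (adjusted p = 2.7e-06) and 0.87 ± 0.11 in TKO (adjusted p = 2.9e-07). In MITF/TFE3 DKO its difference was 0.17 ± 0.11 (adjusted p = 0.21).

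Kif13a (a kinesin that carries melanosomal cargo together with AP-1) was at 31.5, 29.7 and 29.5 CPM in parental libraries, 41.3, 43.1 and 41.8 in MITF KO, 30.0, 38.3 and 36.9 in MITF/TFE3 DKO, 43.3, 42.8 and 43.6 in MITF/TFEB DKO and 43.3, 45.4 and 40.5 in TKO. With MITF present it was at 30.2, 27.7 and 30.6 CPM in TFE3 KO, 31.4, 27.1 and 28.3 in TFEB KO and 29.0, 31.6 and 34.3 in TFEB/TFE3 DKO. Except for 1 library of MITF/TFE3 DKO at 30.0 CPM, every library without MITF lay above every library with it. Kif13a was higher by 0.46 ± 0.09 in MITF KO (adjusted p = 0.00042) and 0.50 ± 0.09 in both MITF/TFEB DKO (adjusted p = 8.6e-05) and TKO (adjusted p = 9.7e-05). Of the 6 transport genes it was the only one higher at the adjusted threshold in TKO, and the other 5 were lower, where 28.3% of all genes were higher and 27.9% lower.

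**Figure D2:**
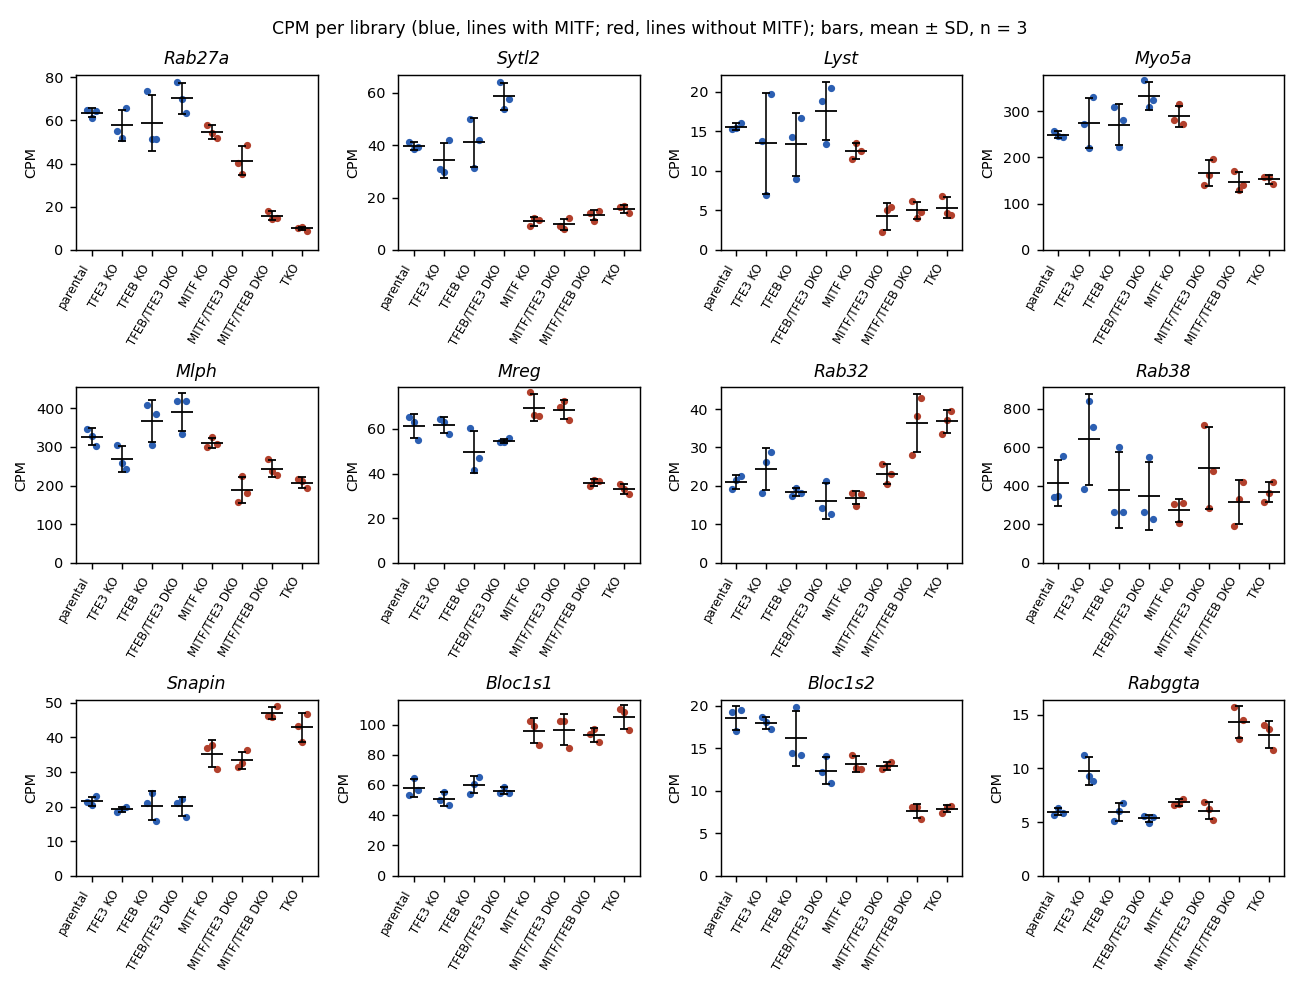
CPM of 12 of the genes in each library (points, blue with MITF and red without) with mean ± SD over 3 libraries per line, on linear axes from 0. Sytl2 is low in all 4 red lines, Lyst and Myo5a in 3 of them, and Rab27a and Mreg in MITF/TFEB DKO and TKO.

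Rab32 and Rab38 direct tyrosinase-family enzymes to the melanosome. Rab32 was at 19.2, 21.4 and 22.6 CPM in parental libraries, 18.03, 14.9 and 17.98 in MITF KO, 25.6, 20.4 and 23.2 in MITF/TFE3 DKO, 28.0, 38.2 and 43.0 in MITF/TFEB DKO and 33.5, 37.2 and 39.6 in TKO. With MITF present Rab32 was at 18.2, 26.3 and 28.8 CPM in TFE3 KO, 17.5, 19.5 and 18.2 in TFEB KO and 14.3, 21.3 and 12.6 in TFEB/TFE3 DKO. The libraries of MITF/TFEB DKO and TKO lay above the parental ones, but the range of MITF/TFEB DKO overlapped that of TFE3 KO. Rab32 rose by 0.74 ± 0.17 in MITF/TFEB DKO (adjusted p = 0.00096) and by 0.78 ± 0.17 in TKO (adjusted p = 0.00064). Rab38 (the chocolate gene) spread widely within lines, from 342 to 551 CPM in parental libraries and from 381 to 837 in TFE3 KO. In MITF KO it was at 303, 204.5 and 311 CPM, below the parental libraries, with a limma difference of -0.58 ± 0.38 (adjusted p = 0.24). The paper names a gene it writes as Rab38a among those moderately lower in MITF KO. None of the Rab38 comparisons passed at an adjusted p under 0.05 in limma or edgeR.

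Hps1 and Hps4 form BLOC-3, the exchange factor of Rab32 and Rab38. Hps1 was at 16.1, 16.5 and 13.3 CPM in parental libraries and 21.0, 24.8 and 27.5 in MITF KO, and Hps4 at 16.2, 16.96 and 15.7 and at 23.4, 23.7 and 22.8, so for each gene the 2 lines did not overlap. In MITF KO Hps1 rose by 0.64 ± 0.16 (adjusted p = 0.0024) and Hps4 by 0.49 ± 0.13 (adjusted p = 0.0043). In TKO Hps1 was higher than in parental cells by 0.38 ± 0.16 (adjusted p = 0.044) and Hps4 lower by -0.41 ± 0.13 (adjusted p = 0.0090). Hps4 overlaps the end of Asphd2 on the other strand.

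Rabggta (ENSMUSG00000040472, the gunmetal gene) encodes the alpha subunit of the enzyme that adds geranylgeranyl lipids to Rab proteins. It was at 5.70, 6.32 and 5.89 CPM in parental libraries, 6.64, 6.67 and 7.19 in MITF KO, 6.85, 6.17 and 5.21 in MITF/TFE3 DKO, 15.7, 12.8 and 14.5 in MITF/TFEB DKO and 14.03, 13.7 and 11.7 in TKO. In TFE3 KO it was at 11.3, 9.30 and 8.82 CPM, in TFEB KO at 5.11, 5.99 and 6.80, and in TFEB/TFE3 DKO at 5.59, 4.93 and 5.48. The libraries of MITF/TFEB DKO and TKO lay above all others and those of TFE3 KO came next. Rabggta rose by 1.13 ± 0.13 in MITF/TFEB DKO (adjusted p = 1.2e-07) and by 1.02 ± 0.13 in TKO (adjusted p = 5.3e-07). In TKO it was at the fold threshold, and without parental replicate 1, TKO replicate 1 or TKO replicate 2 its difference was 0.99, 0.97 or 0.99. With a pseudocount of 5 Rabggta was at 0.81 in MITF/TFEB DKO and 0.73 in TKO, under the threshold.

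Rab7, a GTPase of late endosomes, changed least in this group, with line means from 245 CPM in MITF/TFE3 DKO to 311 in MITF KO. It was lower by -0.34 ± 0.09 in MITF/TFE3 DKO (adjusted p = 0.0058) and by -0.29 ± 0.09 in TKO (adjusted p = 0.012).

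The 8 subunits of BLOC-1 moved in both directions, as all genes did. In TKO, where 28.3% of all genes were higher and 27.9% lower at the adjusted threshold, 3 of them were higher (Bloc1s1, Bloc1s3 and Snapin), 3 were lower (Bloc1s2, Bloc1s6 and Dtnbp1) and 2 did not pass (Bloc1s4 and Bloc1s5), and the median was -0.21. In MITF/TFEB DKO Bloc1s1, Bloc1s3 and Snapin were again higher, and Bloc1s2, Bloc1s4, Bloc1s6 and Dtnbp1 lower, where 28.8% and 27.3% of all genes were.

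Bloc1s1, a subunit shared with the lysosome-positioning complex BORC, was at 53.1, 64.5 and 56.8 CPM in parental libraries, 50.3, 55.3 and 46.6 in TFE3 KO, 54.2, 60.8 and 65.4 in TFEB KO and 55.0, 59.0 and 54.8 in TFEB/TFE3 DKO. It was at 102, 98.9 and 86.5 CPM in MITF KO, 102, 103 and 84.7 in MITF/TFE3 DKO, 94.0, 97.0 and 88.3 in MITF/TFEB DKO and 110.3, 109 and 96.2 in TKO. All 12 libraries without MITF, from 84.7 CPM, lay above all 12 with MITF, up to 65.4 CPM. Bloc1s1 rose by 0.71 ± 0.10 in MITF KO (adjusted p = 4.9e-06) and 0.84 ± 0.10 in TKO (adjusted p = 1.6e-07). Its last 500 bases overlap Rdh5 on the same strand, so reads of these 2 genes may not be told apart.

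Snapin, which BLOC-1 and BORC also share, was at 21.2, 20.3 and 22.9 CPM in parental libraries, 18.3, 19.2 and 19.9 in TFE3 KO, 21.0, 24.04 and 15.8 in TFEB KO and 21.0, 22.2 and 16.96 in TFEB/TFE3 DKO. It was at 37.0, 37.9 and 30.8 CPM in MITF KO, 31.5, 32.5 and 36.2 in MITF/TFE3 DKO, 46.2, 45.8 and 49.1 in MITF/TFEB DKO and 43.3, 38.7 and 46.9 in TKO. Again the 12 libraries without MITF, from 30.8 CPM, lay above the 12 with it, up to 24.04 CPM. Snapin rose by 0.69 ± 0.13 in MITF KO (adjusted p = 0.00017), 0.61 ± 0.13 in MITF/TFE3 DKO (adjusted p = 0.00052), 1.10 ± 0.13 in MITF/TFEB DKO (adjusted p = 1.5e-07) and 0.96 ± 0.13 in TKO (adjusted p = 9.4e-07). With a pseudocount of 5 the value in MITF/TFEB DKO was 0.98, under the fold threshold. Ilf2 overlaps its end on the other strand.

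Bloc1s2, also a subunit of both BLOC-1 and BORC, was at 19.2, 17.01 and 19.6 CPM in parental libraries, 14.3, 12.7 and 12.5 in MITF KO, 12.5, 12.9 and 13.4 in MITF/TFE3 DKO, 8.04, 8.14 and 6.65 in MITF/TFEB DKO and 7.39, 8.04 and 8.26 in TKO. With MITF present it was at 18.6, 18.1 and 17.2 CPM in TFE3 KO, 14.5, 19.9 and 14.2 in TFEB KO and 12.2, 14.1 and 10.9 in TFEB/TFE3 DKO. The MITF/TFEB DKO and TKO libraries lay below all others. Bloc1s2 fell by 1.19 ± 0.13 in MITF/TFEB DKO (adjusted p = 3.8e-08) and by 1.14 ± 0.13 in TKO (adjusted p = 6.8e-08). With a pseudocount of 5 these values were -0.90 and -0.87, under the fold threshold.

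The genes around Bloc1s2 on chromosome 19 were also lower in these 2 lines. The median of the 100 nearest genes was -0.82 in MITF/TFEB DKO and -0.84 in TKO, against 0.01 over all genes in both. Hps1 and Hps6 lie on the same chromosome with neighbour medians of -0.82 in MITF/TFEB DKO and of -0.87 and -0.80 in TKO, and their own values were 0.15 and -0.37 in MITF/TFEB DKO and 0.38 and -0.58 in TKO. In MITF/TFE3 DKO the neighbour medians of Bloc1s2, Hps1 and Hps6 were -0.30, -0.24 and -0.32. The part of this regional shift in the values of the 3 genes was not tested, nor was a common origin of MITF/TFEB DKO and TKO.

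**Figure D3:**
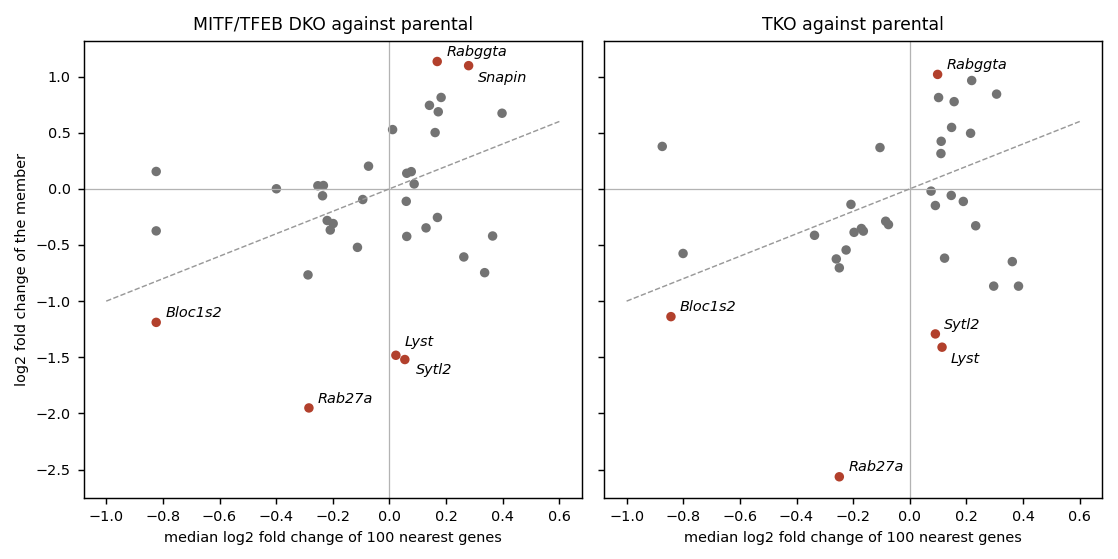
Log2 fold change of each of the 35 genes (y) against the median of its 100 nearest genes on the same chromosome (x) in MITF/TFEB DKO and TKO, with called genes in red and a dashed line at equality. The 3 points near -0.8 on the x axis are Bloc1s2, Hps1 and Hps6, while Rab27a, Sytl2 and Lyst lie far below the line.

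Of the other BLOC-1 subunits, Bloc1s3 had few reads, with line means of 1.496 to 3.41 CPM, and rose by 0.69 ± 0.17 in MITF/TFEB DKO (adjusted p = 0.0020) and 0.81 ± 0.17 in TKO (adjusted p = 0.00040). Dtnbp1 (dysbindin, the sandy gene) ran from 130 CPM in TKO to 173 in TFE3 KO and Bloc1s6 (the pallid gene) from 16.9 CPM in TKO to 23.8 in TFEB/TFE3 DKO. Bloc1s4 was lower in MITF/TFEB DKO by -0.52 ± 0.15 (adjusted p = 0.0060), and Bloc1s5 (the muted gene) passed in none of the 7 comparisons with parental cells.

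The BLOC-2 subunits also moved in both directions, as all genes did. At the adjusted threshold 28.8% of all genes were higher and 27.3% lower in MITF/TFEB DKO, and 28.3% and 27.9% in TKO. Hps5 was at 20.2, 21.9 and 20.3 CPM in parental libraries, 23.0, 23.7 and 21.6 in MITF/TFE3 DKO, 40.3, 33.7 and 38.2 in MITF/TFEB DKO and 30.0, 32.0 and 30.5 in TKO. It rose by 0.81 ± 0.11 in MITF/TFEB DKO (adjusted p = 1.1e-06) and by 0.55 ± 0.11 in TKO (adjusted p = 0.00016). Hps3 was lower by -0.61 ± 0.25 (adjusted p = 0.039) and -0.87 ± 0.25 (adjusted p = 0.0045) in the same lines, and Hps6 by -0.58 ± 0.17 in TKO (adjusted p = 0.0054). Cp overlaps the end of Hps3 on the other strand, and 4930505N22Rik overlaps that of Hps6 on the same strand.

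No subunit of AP-3 or HOPS was called by limma against parental cells, though some passed the adjusted threshold with smaller changes. In TKO 28.3% of all genes were higher and 27.9% lower at that threshold. Among the 5 AP-3 subunits, Ap3d1 (the mocha gene) was lower in TKO by -0.62 ± 0.12 (adjusted p = 1.0e-04), at 288, 296 and 276 CPM against 459, 464 and 400 in parental libraries, with no overlap. Ap3m1 was higher by 0.37 ± 0.09 in TKO (adjusted p = 0.0013), while Ap3b1 (the pearl gene), Ap3s1 and Ap3s2 did not pass there, and Ap3s1 had line means of 1.20 to 3.67 CPM.

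Of the 6 HOPS subunits 4 were lower in TKO at the adjusted threshold, where 27.9% of all genes were: Vps33a (the buff gene) by -0.62 ± 0.13 (adjusted p = 0.00034), Vps11 by -0.54 ± 0.17 (adjusted p = 0.0080), Vps16 by -0.39 ± 0.11 (adjusted p = 0.0055) and Vps39 by -0.38 ± 0.10 (adjusted p = 0.0040). Their line means were lowest in TKO, at 32.2, 12.9, 26.8 and 24.6 CPM. Vps18 did not pass (-0.14 ± 0.14, adjusted p = 0.42).

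Vps41, which also acts in cargo sorting apart from HOPS, went the other way from these 4 subunits. It was at 54.1, 53.1 and 49.4 CPM in parental libraries, 66.7, 71.5 and 62.0 in MITF KO, 58.6, 79.5 and 62.2 in MITF/TFE3 DKO, 80.0, 77.7 and 69.6 in MITF/TFEB DKO and 71.4, 64.7 and 59.7 in TKO. In TFE3 KO it was at 52.8, 46.0 and 48.5 CPM, in TFEB KO at 62.3, 46.9 and 50.4, and in TFEB/TFE3 DKO at 61.8, 53.7 and 64.2. The 4 lines without MITF lay above the parental libraries, but libraries overlapped across the 8 lines. Vps41 was higher by 0.53 ± 0.12 in MITF/TFEB DKO (adjusted p = 0.00047) and 0.31 ± 0.12 in TKO (adjusted p = 0.024).

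The next comparisons ask what the loss of TFEB or TFE3 adds in cells that already lack MITF. Between MITF/TFEB DKO and MITF KO 1 member was called higher and 2 lower, where 6.91% and 3.99% of all genes were. Rab27a was lower by -1.74 ± 0.14 (adjusted p = 3.3e-10) and Lyst as given above, and Rab32 was higher by 1.04 ± 0.17 (adjusted p = 3.5e-05). The Rab32 value fell to 0.95, 0.996 or 0.91 without MITF KO replicate 2, MITF/TFEB DKO replicate 2 or MITF/TFEB DKO replicate 3, each under the fold threshold. The edgeR test called 5 members here, adding Rabggta and Bloc1s3. Mreg and Myo5a were lower by -0.93 ± 0.11 (adjusted p = 1.6e-07) and -0.97 ± 0.14 (adjusted p = 4.0e-06), just under 2-fold.

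Between MITF/TFE3 DKO and MITF KO 0 members were called higher and 1 lower, Lyst, where 3.39% and 1.67% of all genes were. At the adjusted threshold 1 member, Ap3m1, was higher and 9 were lower, where 18.1% and 19.7% of all genes were. Besides Lyst, Mlph (-0.74 ± 0.12, adjusted p = 8.4e-05), Myo5a (-0.81 ± 0.14, adjusted p = 0.00011) and Hps1 (-0.67 ± 0.16, adjusted p = 0.0021) were lower, as were Rab27a, Rab7, Ap3d1, Ap3b1 and Kif13a by smaller amounts, from -0.41 to -0.26. Between MITF/TFEB DKO and MITF/TFE3 DKO, which share the loss of MITF, 1 member was called higher and 1 lower, where 5.70% and 4.05% of all genes were. These were Rabggta (1.12 ± 0.13, adjusted p = 2.2e-07) and Rab27a.

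The effect of losing TFEB was then compared between cells with and without MITF, as the difference between MITF/TFEB DKO minus MITF KO and TFEB KO minus parental. A member was called at a difference of at least 1 on the log2 scale and an adjusted p under 0.05. Rab32 was called higher and Rab27a and Myo5a lower, where 7.39% and 4.75% of all genes were. Rab27a differed by -1.61 ± 0.19 (adjusted p = 6.7e-07), with -0.13 ± 0.14 for TFEB loss in the presence of MITF. Rab32 differed by 1.22 ± 0.25 (adjusted p = 0.00047), with -0.18 ± 0.17 in the presence of MITF. Myo5a differed by -1.08 ± 0.20 (adjusted p = 0.00015), with 0.11 ± 0.14 in the presence of MITF.

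Myo5a was near the threshold, and without TFEB KO replicate 1 or MITF/TFEB DKO replicate 2 its difference was -0.98 or -0.996. Mreg differed by -0.62 ± 0.15 (adjusted p = 0.0024), and Rabggta by 0.97 ± 0.18 (adjusted p = 0.00023), past the adjusted threshold but under a difference of 1, while edgeR called it at 1.07 (adjusted p = 0.00036). For Lyst the difference of -0.94 ± 0.40 did not pass (adjusted p = 0.073).

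For TFE3 the same difference called 0 members higher and 0 lower in limma, where 4.01% and 2.07% of all genes were. At an unadjusted p under 0.05 there were 9 members, where 32.4% of all genes passed, and edgeR called 1, Lyst. In limma Lyst differed by -1.12 ± 0.40 (adjusted p = 0.051), short of the threshold, and Myo5a by -0.93 ± 0.20 (adjusted p = 0.0015).

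**Figure D4:**
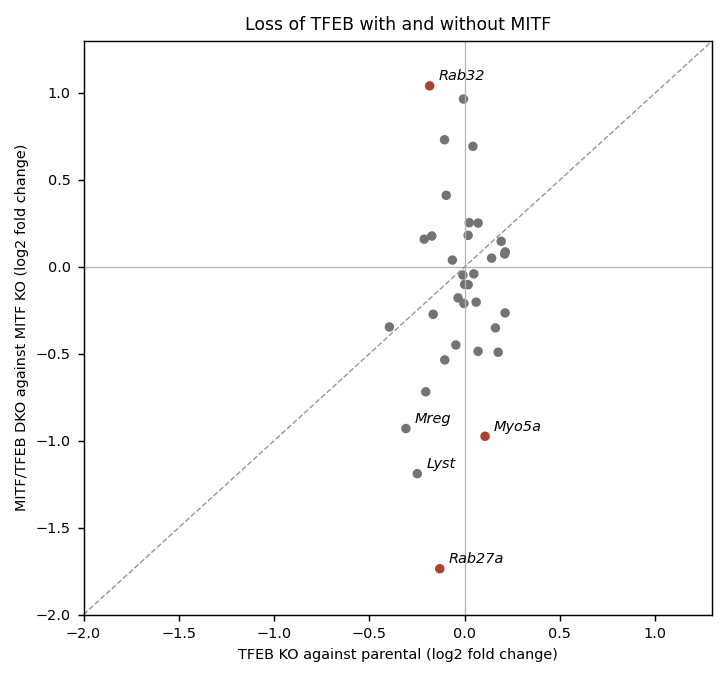
Log2 fold change on loss of TFEB without MITF (y, MITF/TFEB DKO against MITF KO) and with MITF (x, TFEB KO against parental) for the 35 genes, with the 3 called differences in red and a dashed line at equality. On the x axis the points lie between -0.40 and 0.21, while on the y axis they run from -1.74 for Rab27a to 1.04 for Rab32.

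The 4 lines without MITF were compared with the 4 lines with MITF on line means, with the line as the unit and a call at an adjusted p under 0.05 whatever the fold. The double and triple knockouts without MITF were made from the MITF KO cells, so these lines are not independent units. The p-values do not allow for this, and MITF loss and that shared origin cannot be told apart. Snapin (0.93 ± 0.13, adjusted p = 0.0034), Bloc1s1 (0.78 ± 0.09, adjusted p = 0.0020), Kif13a (0.42 ± 0.11, adjusted p = 0.026) and Vps41 (0.35 ± 0.10, adjusted p = 0.042) were higher without MITF, and Sytl2 (-1.72 ± 0.20, adjusted p = 0.0016) and Lyst (-1.12 ± 0.29, adjusted p = 0.028) were lower. These 4 and 2 members stand against 10.3% and 9.08% of all genes. For Lyst the MITF KO libraries, at 11.5 to 13.5 CPM, lay within the range of the libraries with MITF, 6.97 to 20.4 CPM. Vps41 was called no longer without any 1 of TFEB KO replicate 2, MITF/TFE3 DKO replicate 2, TFEB/TFE3 DKO replicate 2 and TKO replicate 1, with values of 0.32 to 0.33. Rab27a had a difference of -1.30 ± 0.46 that did not pass (adjusted p = 0.073), with levels from 8.90 to 58.1 CPM among the lines without MITF.

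Counted by library, 2 members (Bloc1s1 and Snapin) had all 12 libraries without MITF above all 12 with it, as 4.20% of all genes did. Sytl2 had them all below, as 3.46% of all genes did. The 100 nearest genes of Bloc1s1 had a median of 0.36 in the comparison by line, and those of Snapin and Sytl2 medians of 0.20 and -0.02.

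MiT/TFE factors bind E-box sequences, so the 300 bases before the annotated start of each gene were searched on both strands for CACGTG, which reads the same on both, and for CATGTG. Among the promoters of 11659 measured genes, 8.83% held CACGTG, 9.29% CATGTG and 17.2% either. Of the 35 members 5 held the first, 4 the second and 8 either. Promoters of Rab27a, Sytl2, Lyst and Bloc1s2, the 4 genes with the largest changes against parental cells, held neither in this window. Windows lie before the start of the canonical transcript, which in 12 of the 35 members is inside the range of the gene, by 46454 bases in Sytl2, 574 in Hps5, 511 in Bloc1s1 and 1 to 327 in the rest, so other starts were not covered. A match or its absence in this window is a description of the letters and not of binding.

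All 5 stretches with CACGTG are shown, with the motif in capitals and 12 bases on either side, or up to the start in Mlph. Positions are GRCm39 and sequences read 5′ to 3′ on the strand of the gene. They lie at chr7:46445515-46445544 (minus strand), chr10:80578378-80578407 (minus), chr10:128759395-128759424 (minus), chr1:90842762-90842786 (plus) and chr2:130265704-130265733 (plus) in the order given.
Hps5: gggcgctgagggCACGTGaccggaaacgcc
Ap3d1: cagaaaaagctcCACGTGgagctccgccct
Bloc1s1: aggctcttgcgtCACGTGatactgcgatca
Mlph: tcaggagtagccCACGTGatctgag
Vps16: cctttgccctgcCACGTGtcaacggcggcc

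Of these 5 genes Hps5 and Bloc1s1 were higher in TKO (0.55 and 0.84), and Ap3d1, Mlph and Vps16 lower (-0.62, -0.65 and -0.39). The motif starts 31 bases before the start in Hps5, 253 in Ap3d1, 19 in Bloc1s1, 13 in Mlph and 21 in Vps16.

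Other proteins of the same pathways were taken from lists of 67 relatives and partners, of which 58 had rows. Against parental cells 2 were called higher and 1 lower in MITF KO, 2 and 1 in MITF/TFE3 DKO, 2 and 2 in MITF/TFEB DKO, 0 and 3 in TKO, and 0 and 1 in TFE3 KO. Of all genes 3.29% and 2.99%, 3.50% and 2.37%, 8.78% and 4.94%, 8.28% and 6.41%, and 0.366% and 1.34% were called in these lines. Stx3, a plasma membrane and endosomal SNARE, was at 19.2, 20.3 and 19.9 CPM in parental libraries, 4.47, 4.78 and 5.78 in MITF KO, 1.58, 1.84 and 1.65 in MITF/TFE3 DKO, 0.275, 1.05 and 0.995 in MITF/TFEB DKO and 0.765, 0.713 and 0.774 in TKO. With MITF present, Stx3 in the KO lines also lay below the parental libraries. It was at 11.1 to 12.1 CPM in TFE3 KO, 8.64 to 11.6 in TFEB KO and 13.0 to 17.9 in TFEB/TFE3 DKO. It fell by 1.80 ± 0.16 in MITF KO (adjusted p = 5.2e-09) and fell by 3.57 ± 0.16 in TKO (adjusted p = 8.3e-15).

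Sytl4, which encodes another Rab27 effector of the Slp family, was at 0 CPM in all 3 parental libraries, 2.59, 2.85 and 3.27 in MITF KO, 2.62, 3.39 and 2.61 in MITF/TFE3 DKO, 0.745, 0.462 and 0.677 in MITF/TFEB DKO and 0.182, 0.0951 and 0.086 in TKO.

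Among Rab relatives, Rab29, which is closely related to Rab32 and Rab38, rose by 1.22 ± 0.18 in MITF/TFEB DKO (adjusted p = 4.8e-06), from 9.53, 7.73 and 10.5 CPM to 28.0, 21.5 and 19.4. Rab17 rose by 1.27 ± 0.12 in MITF KO (adjusted p = 1.2e-08) and by 1.28 ± 0.12 in MITF/TFE3 DKO (adjusted p = 1.5e-08), and it fell by 1.10 ± 0.12 in TFE3 KO (adjusted p = 8.1e-07). Among the relatives of AP-3 and BLOC-1, Ap1s2 of the AP-1 adaptor fell by 1.27 ± 0.13 in TKO (adjusted p = 3.1e-08) and Ap3m2 was higher by 1.12 ± 0.12 in MITF/TFEB DKO (adjusted p = 4.9e-08).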

How the data were processed

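The members, partner lists and markers were chosen with earlier results of these data known. Every member was to be named, those called against parental cells or by MITF status with the value of every library.

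Trim Galore 0.6.5 and STAR 2.7.8a (mm39) were used by the authors, who deposited TMM-scaled CPM from edgeR, a normalized signal with no negative values. How reads were counted, in which annotation and with which filter is not given in the sources used here. Reads per gene were recovered from the step size of each library (at least 99.98% of values within 0.05 reads of a whole number) and used for the edgeR 4.0.16 quasi-likelihood test, an alternative.

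Lines were compared with limma 3.58.1 (variance trend) on log2(CPM + 1), either with the line as factor over the 24 libraries (residual degrees of freedom, 16) or on 8 line means (6). This scale understates the change of low genes. P-values were adjusted by Benjamini-Hochberg over 12010 genes. Scripts were tested on simulated data. Positions and promoters came from GRCm39 and GENCODE annotation, with 11659 genes placed. Neighbours were the nearest genes of a mean CPM of at least 5. Alternatives were other pseudocounts, a filter on low genes, size factors, a replicate block and leaving out each library. R 4.3.3 and Python 3.11.15 were used. A partner gene that the naming rule selects is not reported here.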

Additional observations from a re-analysis of the deposited data

Results flagged for a closer look

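Loss of TFEB differed between cells without and with MITF for 3 members, by limma's test of the difference itself over all genes, where 7.39% of all genes were called higher and 4.75% lower. Rab27a differed by -1.61 (adjusted p = 6.7e-07), with all 3 MITF/TFEB DKO libraries below all 3 of MITF KO and overlapping ranges for TFEB KO and parental cells. Rab32 differed by 1.22 (adjusted p = 0.00047), with all 3 MITF/TFEB DKO libraries above those of MITF KO. Myo5a differed by -1.08 (adjusted p = 0.00015), with all 3 MITF/TFEB DKO libraries below those of MITF KO, and its difference was under 1 without TFEB KO replicate 1 (-0.98) or MITF/TFEB DKO replicate 2 (-0.996). Each of these lines is 1 clone, so the loss of TFEB and the clone cannot be told apart.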

How the results depend on the processing

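No called value changed sign under the alternatives run, but some uncalled values near 0 did with edgeR, such as Ap3s1 by MITF status (0.03 and -0.15). With a pseudocount of 5 the count of called members was 3 in MITF/TFEB DKO and 3 in TKO against parental cells, 1 in MITF/TFEB DKO and 0 in MITF/TFE3 DKO against MITF KO, and 1 between these double knockouts, since a larger pseudocount shrinks the fold of genes with low CPM. The edgeR test gave 1 member in TFE3 KO and 5 in MITF/TFEB DKO against MITF KO, and within 1.5 times of the reported counts it gave 7 in MITF/TFEB DKO and 6 in TKO against parental cells and 4 for the difference in TFEB loss. For the difference in TFE3 loss, 1 member (0 as reported) was called with edgeR, with a pseudocount of 0.25, with size factors and with the replicate block. With 24 libraries as units, 26 members were called by MITF status (6 by line). The share of all genes called with libraries as units is not given here, so the 26 members have no background to be read against. That setting also counts libraries of the same line as independent units, so its count is not a measure of how many members depend on MITF. Replicate numbers did not pair the libraries (correlation of deviations from -0.66 to 0.77 over same-numbered libraries, mean 0.02), and the replicate block left the other 11 counts as they were. Single pairs of libraries from different lines thus deviated together or in opposite directions, and what they shared was not tested. Leaving out 1 library gave 0 to 1 members in TFE3 KO (1 without parental replicate 3 or TFE3 KO replicate 1), 1 to 2 in MITF/TFE3 DKO against MITF KO (2 without MITF/TFE3 DKO replicate 2) and 0 to 2 for the difference in TFE3 loss (1 without MITF/TFE3 DKO replicate 2, and 2 without TFE3 KO replicate 2 or MITF/TFE3 DKO replicate 3). Genes of few reads, such as Ap3s1 and Bloc1s3, limit what could be detected.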
